A study of Mus with 3 samples.

Results

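The 37 genes described here are members of mTOR and AKT signalling (18 genes) and of autophagy (19 genes), chosen by name. All 37 were found, each as 1 row, among the 27998 genes of the count matrices, and their levels were followed through 5 cell classes of mouse lung and 3 libraries. The cells came from the whole lungs of female mice, 6-12 weeks old, and were read one by one with the Chromium 3′ v3 chemistry, which tags the 3′ end of a transcript with a unique molecular identifier (UMI). The groups were PBS-challenged wild-type mice (WT PBS), wild-type mice given OVA, the model allergen ovalbumin (WT OVA), and DJ-1 KO mice given OVA (DJ-1 KO OVA), in which the gene of the redox-sensitive protein DJ-1, Park7, is knocked out. A group was 1 library, pooled from 3 mice, so differences between groups have no replicate check and none was tested. No DJ-1 KO library challenged with PBS was among the groups, so the knockout is seen under OVA alone. Values given as 3 numbers are in the order WT PBS, WT OVA, DJ-1 KO OVA. The OVA comparison sets WT OVA against WT PBS, and the knockout comparison sets DJ-1 KO OVA against WT OVA. How the deletion was made is not given in the sources used here.

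mTOR is a kinase that works in 2 complexes. One holds raptor (Rptor) and promotes protein synthesis and growth when amino acids and growth factors are present, and the other holds rictor (Rictor) and phosphorylates AKT. Growth factor receptors act through phosphoinositide 3-kinase (PI3K) and AKT, which release mTOR from the brake of the TSC proteins on the small GTPase Rheb. Autophagy delivers cytoplasm and organelles to lysosomes in membrane vesicles. The ULK1 kinase starts it and active mTOR restrains it, a conjugation machinery (ATG3, ATG5, ATG7, ATG12, ATG16L1) couples the ATG8 proteins (LC3 and GABARAP families) to the membrane, and receptors bring in the cargo. In lung epithelium and leukocytes both arms are studied for their part in secretion, survival and inflammation. The values here are RNA levels, and they do not measure the activity of a kinase or the flux through autophagy.

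The libraries held 4556 to 6406 barcodes and 17339386 to 26548669 UMIs. The WT PBS and DJ-1 KO OVA libraries shared 372 cell barcodes, against 6 for WT PBS and WT OVA and 5 for WT OVA and DJ-1 KO OVA. In 306 of the 372 the WT PBS cell had fewer UMIs and in 66 the DJ-1 KO OVA cell did. The smaller cell of each was left out of everything below, and counts with these cells kept are among the alternatives in the closing section. After filtering, 3855, 5930 and 4438 cells remained. One label is at odds with the others: the WT PBS title speaks of an OVA challenge, whereas PBS stands in both the treatment label and the library's name, which set the group.

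Classes were built from clusters named by marker genes. The airway class joins club-like and goblet-like cells (51, 117 and 109 cells). The alveolar class is alveolar type 2-like (305, 776 and 297 cells), the macrophage class alveolar macrophage-like (58, 178 and 222), the T class CD4 and CD8 T-like (858, 1403 and 1134) and the fibroblast class fibroblast-like (337, 436 and 275). The classes' own markers summed to 513194, 474392 and 336048 CPM for 7 club markers in the airway class, and to 211261, 164414 and 127246 CPM for 7 alveolar type 2 markers in the alveolar class. In the T class 6 CD4 T markers summed to 2370.1, 2399.7 and 2708.9 CPM, and in the fibroblast class 8 fibroblast markers to 20184, 18169 and 19788.5 CPM. Other sums differed more between libraries. In the airway class 7 goblet markers summed to 6897, 20253 and 37881 CPM. In the macrophage class 10 alveolar macrophage markers summed to 19748, 56012 and 99594 CPM, while erythroid markers there stood at 5268, 799 and 23.9 CPM. The part of these differences in the airway and macrophage ratios below was not tested. CPM are the UMIs of a gene scaled to a fixed total of UMIs for the class in that library. CPM of 3′ tags are not scaled by length and are not compared between genes here.

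Within the classes the mix of clusters differed between libraries. Most alveolar cells of WT OVA were in cluster 4 (728 of 776), and most of DJ-1 KO OVA were in cluster 13 (219 of 297), which was led by Slc26a4, Chia1 and Il33. The goblet-like cluster of the airway class held 3, 18 and 47 cells. In the T class the cluster with Foxp3 and Ctla4 among its leading genes held 156, 425 and 470 cells. Median UMIs per cell were highest in WT PBS in every class, for example 4629, 1946 and 1641 in T cells.

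Park7 was checked first. In airway cells it stood at 147, 110.2 and 18.7 CPM, and in T cells at 184, 128 and 14.3 CPM. Its ratio in the knockout comparison was 0.112 to 0.271 over the 5 classes, and some UMIs remained in every class. The source of these UMIs was not tested, neither a 3′ tag outside the deleted part nor, given the shared barcodes, reads of one library counted in another.

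All 37 genes were expressed somewhere in the lung, and several of them differed far more between cell types than between libraries. Over 14 cell types with a value in each library, Pik3cd, the catalytic PI3K subunit of leukocytes, was highest in CD8 T-like cells (319, 382 and 444 CPM as lowest, median and highest of the 3 libraries) and lowest in club-like cells (median 2.88 CPM). Its levels in CD8 T-like and natural killer-like cells overlapped. Pik3r1, the regulatory subunit that stabilises the catalytic subunits, stood at 720 to 796 CPM in natural killer-like cells, above every other type in all 3 libraries.

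Neutrophil-like cells were the highest type, in all 3 libraries, for Sesn2, Ulk1, Atg3, Map1lc3b and Gabarap. Map1lc3b, which encodes the LC3B protein, reached a median of 932 CPM there, and Gabarap, of the related ATG8 branch, 996 CPM. Sesn2, a stress-induced inhibitor of mTOR, had a median of 124 CPM in them and the next type was alveolar type 2-like. B cell-like cells were highest for Tsc1, a subunit of the complex that holds Rheb inactive, at 62.8 to 64.0 CPM, and for Rps6kb1, the S6 kinase, at 82.7 to 93.8 CPM. Natural killer-like cells were highest for Rptor, at 37.7 to 52.5 CPM.

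Outside the leukocytes, Wipi1, a phosphoinositide-binding protein of the growing autophagosome, was highest in fibroblast-like cells (64.6 to 94.4 CPM), and Gabarapl1 in mesothelial-like cells (399 to 546 CPM). Optn, the autophagy receptor optineurin, was highest in alveolar type 2-like cells (33.2 to 43.9 CPM). Bnip3l, a mitochondrial autophagy receptor, was highest in alveolar macrophage-like cells (234 to 328 CPM). For these 4 genes the top type was above every other in each library. For the other 24 genes the highest type overlapped with at least 1 other.

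**Figure D1:**
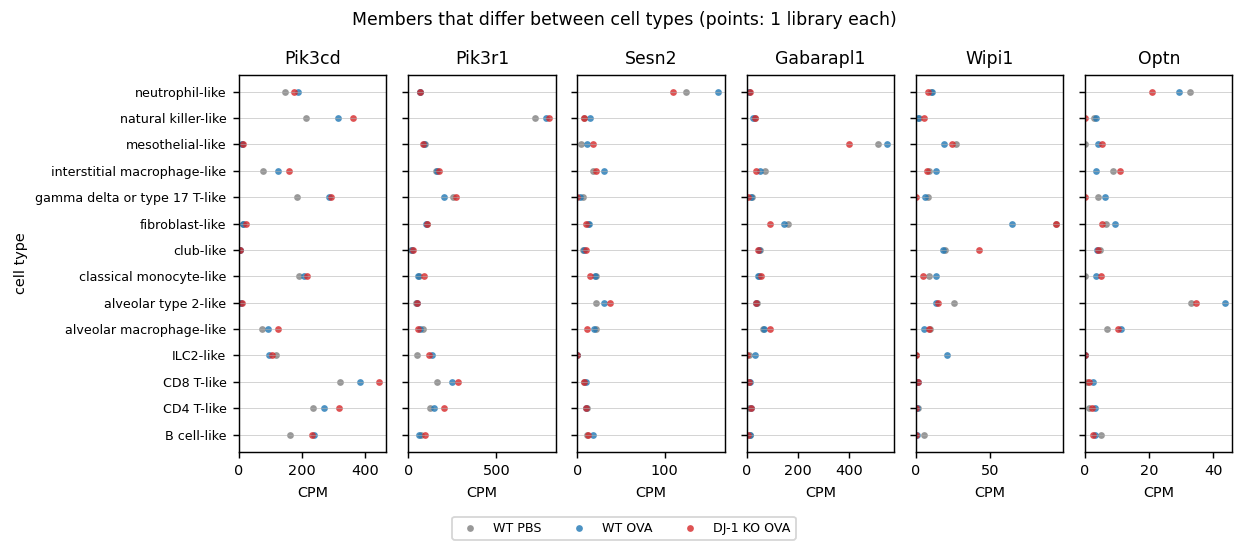
Level in CPM (linear axes) of 6 members over 14 cell types, 1 point per library. Pik3cd spans leukocytes at 73.3 CPM and above against at most 22.2 CPM in epithelial and stromal types, while Pik3r1, Sesn2, Gabarapl1, Wipi1 and Optn each have 1 type whose 3 points lie above all others.

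Between libraries most members differed little. A ratio of CPM was read where a member had at least 50 UMIs over the 2 libraries compared, and members past 1.5-fold were counted, with no test. In the OVA comparison, 155 of 185 pairs of member and class could be read. Of these, 5 (3.23%) were past 1.5-fold higher and 7 (4.52%) past it lower, against 8.67% and 6.49% of all genes in the same classes. For the knockout, 154 pairs could be read, with 12 (7.79%) higher and 10 (6.49%) lower, against 11.5% and 7.61% of all genes. The shares of members lie under those of all genes, most of all for values higher in the OVA comparison (3.23% against 8.67%). The gap was not tested and is not read as a result about the members. With cells weighted alike the OVA comparison had 10 higher and 17 lower. The share of all genes was not computed under that weighting. Whether the members' shares lie under it there cannot be read. WT OVA is part of both comparisons, so its level enters both.

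The mTOR and AKT members and the autophagy members did not part in their counts. In the OVA comparison 3 of 72 mTOR and AKT values were higher and 3 lower, and 2 of 83 autophagy values were higher and 4 lower. With the knockout the counts were 6 and 5 of 71 for mTOR and AKT, and 6 and 5 of 83 for autophagy. By class, the OVA comparison had 1 member higher and 1 lower in airway cells (all genes 9.91% and 6.72%), 0 and 2 in alveolar cells (7.62% and 4.47%), 0 and 2 in macrophages (7.6% and 11.7%), 4 and 1 in T cells (12.9% and 4.13%) and 0 and 1 in fibroblasts (5.6% and 7.0%). The knockout comparison had 4 and 1 in airway cells (13.9% and 6.62%), 2 and 1 in alveolar cells (13.9% and 7.29%), 0 and 4 in macrophages (10.0% and 15.5%), 3 and 1 in T cells (9.61% and 3.78%) and 3 and 3 in fibroblasts (9.9% and 5.54%). With 26 to 35 members read in a class, these counts are read against the shares of all genes and set neither list apart.

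The medians lay close to those of all genes. In the OVA comparison the median log2 ratio of the mTOR and AKT members was -0.02 in airway, 0.02 in alveolar, -0.16 in macrophage, 0.16 in T and -0.08 in fibroblast cells, and that of the autophagy members 0.04, 0.00, -0.19, 0.04 and 0.01. All genes stood at 0.03, 0.08, -0.09, 0.13 and -0.01. In the knockout comparison the mTOR and AKT medians were 0.16, 0.08, -0.12, 0.26 and 0.03 in the same order, the autophagy medians 0.20, -0.07, -0.16, 0.02 and -0.14, and those of all genes 0.13, 0.08, -0.07, 0.16 and 0.08. The 2 lists were furthest apart in DJ-1 KO OVA T cells, at 0.26 against 0.02. Relative to all genes these are 0.11 and -0.14. The medians of the members' counting limits were -0.06 to 0.54 for mTOR and AKT and -0.27 to 0.41 for autophagy there, and they overlapped in every class and comparison. Such limits are as wide as those of single members, so their overlap does not show that the medians are alike. All genes were shifted by over 0.1 in T cells in both comparisons and in airway cells in DJ-1 KO OVA, and ratios in those classes are read beside that shift.

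**Figure D2:**
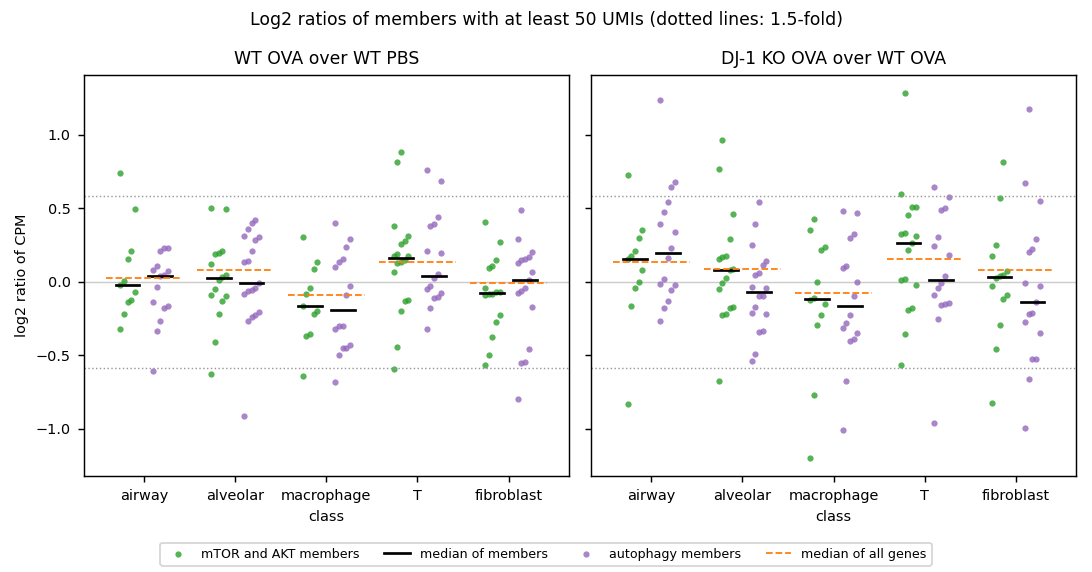
Log2 ratio of CPM for each member with at least 50 UMIs, by class, for WT OVA over WT PBS (left) and DJ-1 KO OVA over WT OVA (right); green points are mTOR and AKT members, purple points autophagy members, black bars their medians and orange dashes the median of all genes. Most points lie between the dotted 1.5-fold lines, and both medians stay within 0.3 of 0 in every class.

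**Figure D3:**
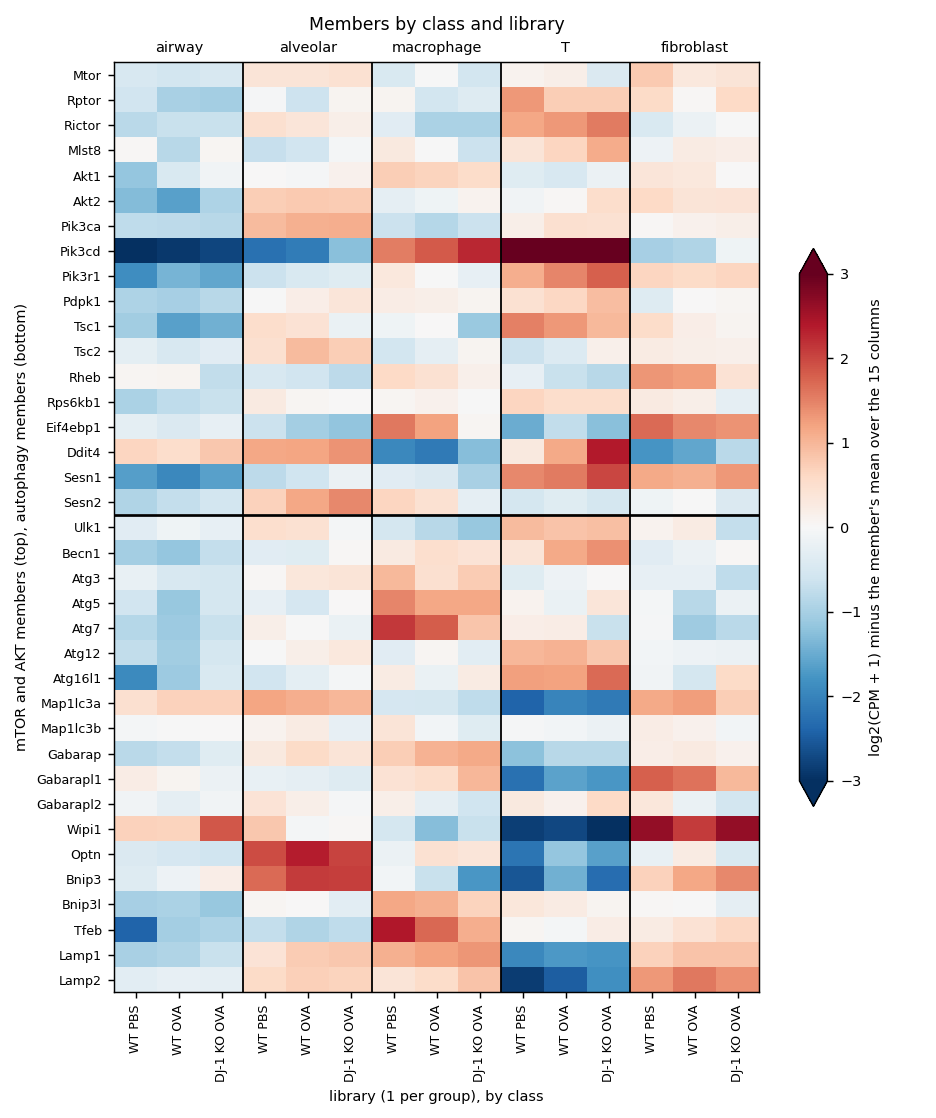
Level of all 37 members (rows; mTOR and AKT above the line, autophagy below) in the 5 classes and 3 libraries (columns), as log2(CPM + 1) minus the member's mean over the 15 columns. Blocks of 3 columns of 1 class share their colour for most members, and the rows with the widest range, such as Pik3cd, Wipi1 and Lamp2, change between classes.

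Among the receptor-proximal genes, the PI3K and AKT subunits were mostly steady. Pik3ca, the broadly expressed catalytic subunit, had ratios of 0.860 to 1.24 in the OVA comparison and 0.969 to 1.16 in the knockout comparison over the 5 classes. In T cells Pik3r1 stood at 142, 184 and 232 CPM, ratios of 1.30 (95% counting interval 1.16 to 1.46) and 1.26 (1.11 to 1.42), both under 1.5-fold. Pik3cd in T cells was at 274, 313 and 362 CPM, and in macrophages at 73.3, 90.5 and 122 CPM, the latter 1.35-fold (1.11 to 1.64) higher in the knockout comparison. In both of these leukocyte classes Pik3cd was lowest in WT PBS and highest in DJ-1 KO OVA. With every cell thinned to the same number of UMIs, Pik3cd could be read in 2 classes of each comparison. It was then higher in 2 of 2 classes in the OVA comparison and in 1 of 2 in the knockout comparison.

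Pik3cd was also past 1.5-fold in alveolar cells and fibroblasts, where it was scarce. It had 18, 27 and 26 UMIs in alveolar cells (4.36, 4.91 and 9.59 CPM) and 31, 27 and 33 UMIs in fibroblasts (11.8, 12.6 and 22.2 CPM). The knockout ratios were 1.95 (1.09 to 3.47) and 1.76 (1.03 to 3.04), and the log2 ratio in alveolar cells was 0.06 with doublets kept, while that in fibroblasts was -0.18 with cells weighted alike. Markers of leukocytes differed beside it in both directions. The summed CPM of 6 CD4 T markers, all detected, was 15.5 in WT OVA and 71.2 in DJ-1 KO OVA alveolar cells, and that of alveolar macrophage markers, 8 of 10 and 9 of 10 detected, was 64.6 and 771 in fibroblasts. Neutrophil markers were lower, at 182 and 105 CPM in alveolar cells and 541 and 104 CPM in fibroblasts, and B cell markers were at 36.2 and 39.1 CPM in alveolar cells. Their part in the result was not tested.

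AKT kinases differed in airway cells. Akt1 stood at 24.9, 41.4 and 52.9 CPM there (45, 120 and 153 UMIs), 1.67-fold (1.17 to 2.40) higher with OVA. In cluster airway.1 the ratio was 2.19, and in cluster airway.0 it was 1.25 (0.675 to 2.45). Akt2, the isoform best known for insulin signalling, was at 23.7, 19.0 and 31.5 CPM in airway cells, 1.66-fold (1.17 to 2.36) higher in the knockout comparison. In the other 4 classes Akt1 ratios were 0.815 to 1.25 and Akt2 ratios 0.854 to 1.42. Pdpk1, the kinase that activates AKT, had no ratio past 1.5-fold.

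Of the mTOR complex subunits, Mtor itself had 7 to 71 UMIs per class and library and could be read in 3 classes of the OVA comparison, where its ratios of 0.708 to 1.05 had intervals that included 1. Rptor was lower with OVA in each of the 3 classes in which it could be read. In alveolar cells it stood at 14, 9.10 and 15.5 CPM (58, 50 and 42 UMIs), with ratios of 0.648 (0.435 to 0.963) and 1.70 (1.10 to 2.62). In T cells it was at 37.1, 24.6 and 24.9 CPM, a ratio of 0.663 (0.498 to 0.877) for OVA, and that value was within 1.5-fold under 3 of 14 alternatives: its log2 ratio was -0.57 when called doublets stayed in, also -0.57 when the doublet score limit was set to 0.25 in all libraries, and -0.58 when mitochondrial UMIs were limited to 10%. Rictor, which defines the other complex, was at 83.4, 92.3 and 111 CPM in T cells, and it was past 1.5-fold once, in macrophages, at 0.640 (0.382 to 1.08) in the OVA comparison. Mlst8, common to both complexes, could be read in T cells alone, at 9.34, 11.3 and 16.2 CPM.

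Rheb, the GTPase that switches on the raptor complex, was lower in all 5 classes of the knockout comparison. In fibroblasts it stood at 180.3, 169.9 and 95.7 CPM (472, 363 and 142 UMIs), and in airway cells at 74.6, 74.9 and 42.2 CPM (135, 217 and 122 UMIs). The WT libraries were alike in both classes, and the DJ-1 KO OVA intervals (80.6 to 113 CPM in fibroblasts, 35.0 to 50.4 CPM in airway cells) lay under both. The knockout ratio was 0.563 in both, with intervals of 0.461 to 0.686 in fibroblasts and 0.447 to 0.706 in airway cells.

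In the other 3 classes Rheb ratios were 0.816 to 0.884 with intervals that included 1. Rheb was lower in DJ-1 KO OVA in each of the 5 fibroblast clusters with at least 20 cells in both libraries, at ratios of 0.418 to 0.770. It was also lower in the airway clusters airway.0 (0.548) and airway.1 (0.502). With every cell thinned to 1000 UMIs, 4 of the 5 classes stayed lower and the fibroblast log2 ratio was -0.43, inside 1.5-fold; in the largest fibroblast cluster of DJ-1 KO OVA, mesenchymal.0, it was -0.38. The gene lies at chr5:24802823-24842361 (GRCm38.p6).

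The TSC genes differed less. Tsc1 was at 23.2, 21.8 and 13.6 CPM in alveolar cells (96, 120 and 37 UMIs), a ratio of 0.625 (0.42 to 0.910) in the knockout comparison, and 0.615 and 0.621 in clusters 13 and 4 apart. Tsc2 in T cells was at 13.5, 16.2 and 24.5 CPM, with a knockout ratio of 1.51 (1.01 to 2.27). Relative to all genes of the class its log2 ratio was 0.44, under 1.5-fold.

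Ddit4 (REDD1), which inhibits the raptor complex through TSC under stress, gave the clearest difference among mTOR members. In T cells it stood at 12.8 CPM in WT PBS (55 UMIs; 95% interval 9.67 to 16.7) and at 23.6 CPM in WT OVA (73 UMIs; 18.5 to 29.7). The level of DJ-1 KO OVA was 57.7 CPM (125 UMIs; 48.0 to 68.8). The 3 intervals did not overlap. WT OVA was 1.84-fold (1.28 to 2.66) over WT PBS, and DJ-1 KO OVA was 2.44-fold (1.81 to 3.30) over WT OVA. With cells weighted alike the first log2 ratio was 0.46 in place of 0.88, inside 1.5-fold. The second was past 1.5-fold in all 14 alternatives (0.98 to 1.59), of which those with another UMI minimum cannot move it.

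The higher Ddit4 level of DJ-1 KO OVA was seen in each of the 5 larger T clusters. It was 2.14-fold (1.44 to 3.23) in the cluster led by Foxp3 and Ctla4, where most of its UMIs were (80 against 39), and 1.64-fold to 3.45-fold in the others, whose intervals included 1. In airway and alveolar cells Ddit4 was at 15.2 to 18.7 and 24.0 to 27.7 CPM over the 3 libraries, with no ratio past 1.5-fold. It had at most 8 UMIs in any library in macrophages and fibroblasts.

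Other stress genes were higher beside Ddit4 in T cells. Of immediate early and dissociation genes, 7 of 16 read were past 1.5-fold higher in the OVA comparison and 8 of 17 in the knockout comparison, 0 lower in either, with median log2 ratios of 0.48 and 0.50 (all genes 12.9% and 9.61% higher). The 3 furthest in DJ-1 KO OVA were Hspa1a, at a ratio of 4.85, Hspa1b, at a ratio of 4.46, both heat shock proteins, and Ier3, at a ratio of 2.52. Of 4 glucocorticoid-linked genes read, 2 were past 1.5-fold higher with OVA and 1 in the knockout comparison, 0 lower in either. Their medians were 0.62 and 0.49, and Fkbp5, a glucocorticoid receptor co-chaperone, was at 18.4, 33.4 and 63.7 CPM. With OVA this list was not higher in T cells alone. Its median was 0.76 in alveolar cells and 0.78 in fibroblasts, against -0.03 in airway cells and -0.09 in macrophages. The part of the stress and glucocorticoid-linked genes in the Ddit4 difference was not tested.

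The sestrins, which relay amino acid shortage and stress to mTOR, were within 1.5-fold in nearly all classes. Sesn1 was at 45.3, 49.6 and 67.9 CPM in T cells, a knockout ratio of 1.37 (1.08 to 1.73). Sesn2 in alveolar cells was at 21.8, 30.8 and 37.6 CPM, with ratios of 1.41 (1.09 to 1.84) and 1.22 (0.947 to 1.57). In macrophages Sesn2 was at 21.2, 18.5 and 10.8 CPM, and its ratio of 0.585 in DJ-1 KO OVA had an interval of 0.333 to 1.01.

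Of the substrates of the raptor complex, Rps6kb1 had no ratio past 1.5-fold in any class. Eif4ebp1 (4E-BP1), the translation repressor that mTOR inactivates, was at 65.6, 50.8 and 22.1 CPM in macrophages (68, 96 and 49 UMIs). The knockout ratio was 0.435 (0.302 to 0.620), and the DJ-1 KO OVA interval lay under those of both WT libraries. In T cells Eif4ebp1 was scarce, at 30, 38 and 18 UMIs, and 1.76-fold (1.06 to 2.94) higher with OVA. In fibroblasts it was at 71.8, 59.4 and 55.9 CPM, with no ratio past 1.5-fold.

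Among the initiators of autophagy, Ulk1 was lower in fibroblasts of DJ-1 KO OVA. It stood at 36.3, 40.2 and 20.2 CPM (95, 86 and 30 UMIs), and the ratio to WT OVA was 0.502 (0.320 to 0.769). In alveolar cells the ratio was 0.688 (0.534 to 0.880), from 47.1 to 32.5 CPM. Levels in T cells were alike, at 66.1, 62.5 and 64.2 CPM.

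Becn1 (beclin 1), part of the lipid kinase complex that marks the site of vesicle formation, was higher in T cells with OVA. It stood at 69.6 CPM in WT PBS (298 UMIs), 118 CPM in WT OVA (364 UMIs) and 139 CPM in DJ-1 KO OVA (302 UMIs), ratios of 1.69 (1.45 to 1.98) and 1.18 (1.01 to 1.38). WT PBS was the low library and the intervals of the others overlapped. The OVA ratio was 1.33 (0.987 to 1.80) in the cluster with Foxp3 and 1.79 to 1.83 in the other 4 larger T clusters. For the whole T class it was past 1.5-fold in all 14 alternatives, of which those with another UMI minimum cannot move it. In the other 4 classes Becn1 ratios for OVA were 0.891 to 1.18.

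**Figure D4:**
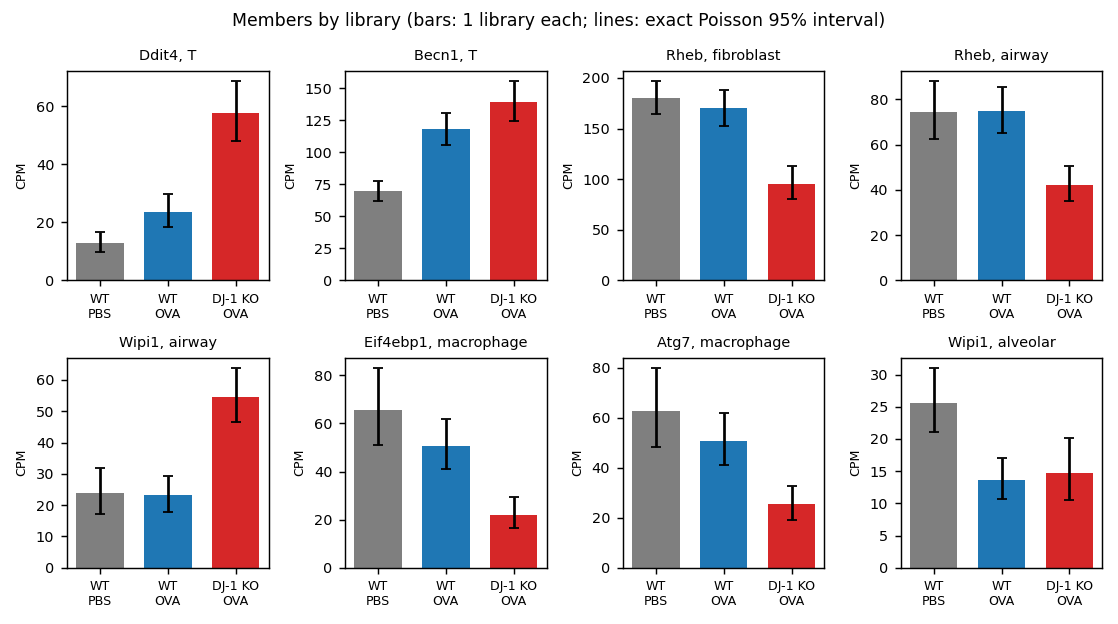
CPM of 6 members in 8 pairs of member and class; each bar is 1 library and each line its exact Poisson 95% interval, with axes from 0. Ddit4 in T cells differs between all 3 libraries, Becn1 in T cells and Wipi1 in alveolar cells set WT PBS apart, and Rheb, Eif4ebp1, Atg7 and airway Wipi1 set DJ-1 KO OVA apart from both WT libraries.

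Wipi1 was the autophagy member with the largest difference in airway cells. It stood at 23.7 CPM in WT PBS (43 UMIs), 23.1 CPM in WT OVA (67 UMIs) and 54.6 CPM in DJ-1 KO OVA (158 UMIs; 46.4 to 63.8). The WT libraries were alike, and DJ-1 KO OVA was 2.36-fold (1.76 to 3.19) over WT OVA. By cluster the ratio was 2.06 (0.926 to 4.72) in airway.0, 2.22 (1.41 to 3.53) in airway.1 and 1.64 (1.03 to 2.73) in the goblet-like airway.2. WT OVA levels were 7.93, 37.2 and 44.1 CPM in these 3 clusters, and the goblet-like cluster holds more of the airway cells of DJ-1 KO OVA; the ratio was above 1 in each of the 3 clusters.

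In alveolar cells the low libraries for Wipi1 were WT OVA and DJ-1 KO OVA, at 13.7 and 14.8 CPM against 25.7 CPM in WT PBS. The OVA ratio was 0.532 (0.390 to 0.722), and 0.492 within cluster 4. In fibroblasts Wipi1 was at 94.4, 64.6 and 94.4 CPM, so WT OVA stood apart there, with ratios of 0.684 (0.552 to 0.846) and 1.46 (1.15 to 1.86). In the knockout comparison Wipi1 was higher in 2 of 3 classes with cells weighted alike. With every cell thinned to the same number of UMIs, it could be read in 1 class of that comparison and was not higher there. The gene lies at chr11:109573521-109611389 (GRCm38.p6).

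The conjugation genes did not differ as a unit. Atg5 was lowest in WT OVA in 4 classes and in macrophages level with DJ-1 KO OVA, at 90.6, 73.6 and 73.6 CPM. In fibroblasts it stood at 30.9, 17.8 and 28.3 CPM (81, 38 and 42 UMIs), ratios of 0.575 (0.380 to 0.855) for OVA and 1.59 (1.00 to 2.54) for the knockout. In airway cells it was at 21.5, 14.2 and 22.1 CPM, with ratios of 0.657 (0.414 to 1.05) and 1.56 (1.04 to 2.37). In T cells it was at 34.8, 27.9 and 41.5 CPM. All 5 classes had Atg5 lower with OVA, also relative to all genes and with cells weighted alike; with cells thinned to 1000 UMIs 1 of 2 classes that could be read was higher.

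Atg16l1, which places the conjugation enzyme on the membrane, was higher in all 5 classes of the knockout comparison, at ratios of 1.19 to 2.26, also relative to all genes and with cells weighted alike. In fibroblasts it stood at 18, 13.1 and 29.7 CPM (47, 28 and 44 UMIs) and the ratio was 2.26 (1.38 to 3.77). The 5 fibroblast clusters with at least 20 cells each had ratios of 1.33 to 2.25, on at most 15 UMIs a library. In T cells Atg16l1 was at 47.2, 46.3 and 65.6 CPM, a ratio of 1.41 (1.11 to 1.80).

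Atg7, the activating enzyme of both conjugation reactions, went the other way. In macrophages it stood at 62.7, 50.8 and 25.3 CPM (65, 96 and 56 UMIs), and the knockout ratio was 0.498 (0.351 to 0.699). In T cells it was at 15.9, 16.2 and 8.31 CPM (68, 50 and 18 UMIs), a ratio of 0.513 (0.282 to 0.895). The third class that could be read, alveolar cells, gave 0.865 (0.553 to 1.32). Atg12, the ubiquitin-like partner of ATG5, had no ratio past 1.5-fold, and neither had Atg3, the conjugating enzyme, which was at 127, 89.96 and 111 CPM in macrophages.

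Of the 5 ATG8 genes, Gabarap had the most UMIs of all members. Gabarap was higher with OVA in all 5 classes, at 1.05 to 1.31, for example 510.1, 619.9 and 550.3 CPM in alveolar cells; with cells weighted alike 3 of 5 classes were higher, and thinned to 1000 UMIs 4 of 5. Gabarapl2 was lower in all 5, at 0.683 to 0.885, with 129.5, 88.4 and 69.4 CPM in fibroblasts, and stayed lower with cells weighted alike and, in the 3 classes read, thinned. Neither gene was past 1.5-fold in any class, and 2 genes of 1 family thus lay on opposite sides of 1.

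Gabarapl1 differed in opposite directions between macrophages and fibroblasts. In fibroblasts it was at 162, 143.7 and 91.0 CPM (424, 307 and 135 UMIs), a knockout ratio of 0.633 (0.513 to 0.778). In macrophages it was at 61.7, 66.1 and 92.5 CPM, a ratio of 1.40 (1.11 to 1.76). The fibroblast value was inside 1.5-fold, at a log2 ratio of -0.44, when both cells of every shared barcode were left out. In T cells Gabarapl1 was scarce, at 38, 44 and 28 UMIs, and 1.61-fold (1.02 to 2.55) higher with OVA.

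Map1lc3b in macrophages was highest in WT PBS, at 365, 267 and 219.8 CPM (379, 505 and 487 UMIs), with ratios of 0.731 (0.639 to 0.838) and 0.823 (0.725 to 0.934). In alveolar cells it was at 303, 333 and 237 CPM, and DJ-1 KO OVA stood at 0.712 (0.650 to 0.780) of WT OVA. Within alveolar clusters 13 and 4, which hold most cells of DJ-1 KO OVA and WT OVA respectively, the ratio was 0.798 (0.660 to 0.971) and 0.864 (0.727 to 1.02). Map1lc3a, which encodes LC3A, was lower in all 5 classes of the knockout comparison (0.696 to 0.987), with only the fibroblast interval of 0.603 to 0.8 excluding 1, at 264, 288 and 200.2 CPM. Thinned to 1000 UMIs, 1 of 5 classes was higher.

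Of the cargo and mitochondrial receptors, Bnip3l was lower in all 5 classes of the knockout comparison, at 0.758 to 0.902. In macrophages it was at 328, 308 and 234 CPM, a ratio of 0.758 (0.672 to 0.855). In alveolar cells the ratio was 0.792 (0.694 to 0.903). The direction held relative to all genes and with cells weighted alike, and thinned in 3 of 4 classes; no ratio was past 1.5-fold. Its relative Bnip3, a hypoxia-induced receptor, was higher with OVA in the 3 classes read, by 1.17-fold to 1.40-fold. In alveolar cells, for example, it was at 58.8 and 78.8 CPM. With cells weighted alike Bnip3 was higher in all 3 classes. Thinned, it could be read in 1 class and was not higher there. Optn, read in alveolar cells alone, was at 33.2, 43.9 and 34.7 CPM.

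Tfeb, the transcription factor of lysosome and autophagy genes, was lower in each successive group in macrophages. It stood at 57.9 CPM in WT PBS (60 UMIs), 36.0 CPM in WT OVA (68 UMIs) and 22.6 CPM in DJ-1 KO OVA (50 UMIs), ratios of 0.622 (0.433 to 0.895) and 0.627 (0.426 to 0.917). The second was inside 1.5-fold, at a log2 ratio of -0.55, with both cells of every shared barcode left out. In the other classes Tfeb was at 1.10 to 16.2 CPM, with no ratio past 1.5-fold where it could be read; in airway cells it had 2, 13 and 14 UMIs, too few to read.

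The lysosomal membrane proteins Lamp1 and Lamp2 were not lower in macrophages. Lamp1 was at 697, 767 and 826 CPM and Lamp2 at 252, 279.9 and 350.3 CPM there, Lamp2 being 1.25-fold (1.12 to 1.40) higher in the knockout comparison. In the OVA comparison both were higher in all 5 classes, at 1.05 to 1.28 for Lamp1 and 1.06 to 1.30 for Lamp2, also with cells weighted alike. With cells thinned to 1000 UMIs 3 of 5 classes were higher for Lamp1 and 1 of 5 for Lamp2, so the direction depends on that choice. In T cells Lamp2 was at 25.9, 33.7 and 52.6 CPM (111, 104 and 114 UMIs), a knockout ratio of 1.56 (1.19 to 2.06). It was inside 1.5-fold under 4 of 14 alternatives, with a lowest log2 ratio of 0.43 without the smaller cells of barcodes shared by any 2 libraries. Alveolar macrophage markers, 8 of 10 detected in each, summed to 91.0 CPM in T cells of WT OVA and 411 CPM in those of DJ-1 KO OVA, and their part in the result was not tested.

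Other genes of the pathways, taken from lists of 37 PI3K, AKT and mTOR genes and 32 autophagy genes, gave counts that are read against the shares of all genes per class and comparison given above. In the knockout comparison the mTOR list had 1 of 24 higher and 0 lower in airway cells, 2 and 1 of 32 in alveolar cells, 1 and 4 of 27 in macrophages, 2 and 2 of 29 in T cells and 2 and 1 of 26 in fibroblasts. The autophagy list had 2 and 3 of 26, 1 and 4 of 31, 1 and 3 of 28, 1 and 2 of 30 and 2 and 1 of 26. In the OVA comparison the mTOR list had 1 and 1 of 22, 4 and 1 of 32, 2 and 1 of 24, 4 and 0 of 30 and 3 and 0 of 26, and the autophagy list 0 and 1 of 19, 1 and 0 of 32, 2 and 1 of 21, 4 and 1 of 30 and 2 and 1 of 29. In macrophages of the knockout comparison, for example, 10.0% of all genes were past 1.5-fold higher and 15.5% lower.

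A few of these genes recurred across classes. Pink1, the mitochondrial kinase that starts mitophagy, was lower in the knockout comparison in alveolar cells (58.2 to 28.0 CPM, ratio 0.481, 0.370 to 0.620), macrophages (0.407, 0.230 to 0.699), T cells (0.586, 0.424 to 0.801) and fibroblasts (0.509, 0.377 to 0.681), with airway cells at 0.919 (0.6 to 1.41). Calcoco1, an autophagy receptor, was lower in airway cells (0.476), alveolar cells (0.367) and macrophages (0.533), and at 0.903 in T cells and 0.673 in fibroblasts. Both were within 1.5-fold in the OVA comparison in all 5 classes.

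Flcn (folliculin), which acts on the amino acid arm of mTOR, was higher with OVA in alveolar cells (46.5 to 106 CPM, ratio 2.27, 1.93 to 2.69), macrophages (1.83, 1.15 to 3.02) and T cells (1.69, 1.35 to 2.11). In macrophages Slc7a5, an amino acid transporter subunit, stood at 22.2 CPM in WT OVA (42 UMIs) and 3.61 CPM in DJ-1 KO OVA (8 UMIs). The knockout ratio was 0.162 (0.0659 to 0.35). Its WT PBS level there was 3.86 CPM, and the OVA comparison had too few UMIs to read. Inpp5d, the leukocyte phosphatase SHIP1, was 1.80-fold (1.56 to 2.07) higher in the knockout comparison in T cells. Sqstm1 (p62), the best-known autophagy receptor, was singled out after its values were seen. Its knockout ratio was 0.647 (0.569 to 0.734) in airway cells and 0.628 (0.574 to 0.687) in macrophages, and at 1.17 (1.08 to 1.26) in alveolar cells.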

How the data were processed

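For each of 3 libraries, 1 per group, the authors deposited a matrix of whole UMI counts, genes by cell barcodes. The file headers name software 3.1.0. Reads had been processed with Cell Ranger and STAR against mm10, per the submitters' processing notes; the annotation release is not given in the sources used here. Each barcode held at least 500 UMIs, so cells had been called before deposit. Here, a cell needed 200 detected genes and no more than 20% of its UMIs from mitochondrial genes. Scrublet (scanpy 1.11.5, expected rate 0.06) removed 57, 162 and 3 barcodes, and the smaller cell of each barcode common to WT PBS and DJ-1 KO OVA was left out. The 3 barcodes are 0.0643% of DJ-1 KO OVA, so doublets may remain there, and an alternative limits the score to 0.25.

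The libraries were clustered together (UMIs scaled to 10000 per cell and log-transformed, 2000 variable genes without the 37 members, 30 components, 15 neighbours, Leiden resolution 1, families of related clusters again at 0.5; leidenalg 0.10.2, igraph 0.11.9, scikit-learn 1.9.0). Names came from 33 marker lists and needed at least 3 markers detected in 10% of cells; thymocyte-like, cycling and gamma delta or type 17 T clusters were kept out of the T class. UMIs were summed per class (at least 30 cells) and library. CPM have exact Poisson and ratios exact conditional binomial intervals at 95% (SciPy 1.17.1), which cover counting error only. The interval steps were tested on simulated counts. Values in full are given for members past 1.5-fold whose interval excludes 1, and for Park7; of each of the 7 further lists the 3 genes farthest from no difference per class may be named. Members and lists were chosen with earlier results of these data known. Alternatives covered filters, doublets, shared barcodes, clustering, classes, scaling, weighting, thinning, the UMI minimum and the fold; the use of 1 cluster per class was chosen after seeing the data. All 37 members matched a RefSeq gene table of assembly GRCm38.p6, the source of the coordinates. Other tools were Python 3.11.15, NumPy 2.4.6, pandas 2.3.3 and matplotlib 3.10.9.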

Additional observations from a re-analysis of the deposited data

Results flagged for a closer look

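For 6 members the ratio lay above 1 in one class and below 1 in another, with both counting intervals excluding 1. Whether the classes differ was not tested. The share of all genes that meet this rule was not computed, and narrow intervals of genes with many UMIs meet it more easily. With OVA, Atg3 was at 1.239 (1.063 to 1.447) in alveolar cells and 0.7068 (0.5597 to 0.8941) in macrophages, and Map1lc3b at 1.098 (1.022 to 1.181) in alveolar cells and 0.7313 (0.6388 to 0.8377) in macrophages. In the knockout comparison Atg3 was at 1.229 (1.007 to 1.504) in macrophages and 0.6953 (0.4961 to 0.9645) in fibroblasts, and Gabarapl1 at 1.399 (1.115 to 1.762) and 0.6333 (0.5134 to 0.7779) in the same 2 classes. Gabarap was at 1.265 (1.147 to 1.394) in airway cells and 0.8876 (0.8347 to 0.9436) in alveolar cells. Gabarapl2 was at 1.404 (1.205 to 1.637) in T cells and 0.7842 (0.623 to 0.9864) in macrophages. Lamp2 was at 1.562 (1.187 to 2.058) in T cells and 0.8639 (0.7878 to 0.9468) in fibroblasts. Of the 6, 4 encode ATG8 proteins, which without that share is not read as a result about the family.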

How the results depend on the processing

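All 273 list medians recomputed under an alternative lay within the counting limits of the main value. Those limits are medians of the limits of single members and are wide for a median, so this check could hardly fail. Of 56 counts, 17 moved by over 1.5 times. The 5 higher values of the OVA comparison were 3 without the smaller cells of barcodes shared by any 2 libraries, 3 at Leiden resolution 2, 10 with cells weighted alike, 8 at a minimum of 20 UMIs, 3 at 100 UMIs, 0 past 2-fold and 3 with 1 cluster per class. Its 7 lower values were 17 with cells weighted alike, 2 with cells thinned to 1000 UMIs, 13 at 20 UMIs and 0 past 2-fold. The 12 higher values of the knockout comparison were 3 thinned, 6 at 100 UMIs and 3 past 2-fold, and its 10 lower values 3 thinned, 18 at 20 UMIs and 2 past 2-fold. Another UMI minimum and thinning change how many genes can be read, and another fold changes what is counted. The cause of the other shifts was not tested. Shares of all genes were not computed under the alternatives, so these counts are not read against them. Of 447 values of named members and Park7, 435 were alike. Among these, the 36 at a minimum of 20 UMIs and the 28 at 100 UMIs cannot differ from the main values. With cells thinned to 1000 UMIs 5 of 10 moved. Over all alternatives 11 moved and 1 changed sign, Pik3cd in fibroblasts in the knockout comparison, at -0.18 with cells weighted alike. Also inside 1.5-fold were Akt1 in airway cells with wider classes (0.58) or 1 cluster (0.32), and Atg5 there relative to all genes (0.51). Without both cells of shared barcodes, so were Akt2 in airway cells (0.55) and Tsc1 in alveolar cells (-0.42). Rptor in alveolar cells was inside with cells weighted alike (-0.53), and Gabarapl1 in T cells at Leiden resolution 2 (0.45). Not every such setting is named. Gabarapl1 stayed past 1.5-fold in 7 of 10 alternatives in T cells and 12 of 14 in fibroblasts (knockout comparison). In the knockout comparison, Tsc2 in T cells stayed past it in 11 of 13, and Pik3cd in fibroblasts in 8 of 10. With both cells of every shared barcode left out, 20 WT PBS airway cells remain, under the 30 required, so this gave no count over all classes. No paired analysis was possible because each group has 1 library.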

Other observations

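Some lysosomal genes were higher in the macrophages of DJ-1 KO OVA. Of 28 lysosome and TFEB-linked genes read there, 7 were past 1.5-fold higher and 0 lower in the knockout comparison (all genes 10.0% and 15.5%), among them Ctsl, the protease cathepsin L, at 222 and 675 CPM, Cd63, a late endosome membrane protein, at 112 and 277 CPM, and Atp6v1a, a subunit of the proton pump, at 210.1 and 418 CPM. The other 21 were within 1.5-fold, and the median of the list was 0.15 (counting limits -0.16 to 0.48) against -0.07 for all genes. In the same cells alveolar macrophage markers summed to 56012 CPM in WT OVA and 99594 CPM in DJ-1 KO OVA, club markers to 868 and 1886 CPM, fibroblast markers to 1668 and 2267 CPM, neutrophil markers to 2919.8 and 3499.6 CPM and erythroid markers to 799 and 23.9 CPM. Their part in these values was not tested. In T cells the same list had 6 of 26 higher and 1 lower with OVA, at a median of 0.46 against 0.13 (all genes 12.9% higher and 4.13% lower), with Cd63 at 3.74 and 12.3 CPM and Grn at 10.5 and 30.1 CPM. Alveolar macrophage markers in T cells summed to 22.2, 91.0 and 411 CPM, with 8 to 10 of 10 detected, and their part in the T cell values was not tested.

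Glycolytic and hypoxia-linked genes were higher in T cells of DJ-1 KO OVA than in those of WT OVA for 4 of 11 genes read, 0 lower (all genes 9.61% and 3.78%). Slc2a1, the glucose transporter GLUT1, was at 18.5 and 42.9 CPM, Pfkfb3, a glycolytic regulator, at 7.45 and 16.2 CPM, and Ldha, lactate dehydrogenase, at 255 and 428 CPM. The median of the list in T cells was 0.38 (counting limits -0.07 to 0.73) against 0.16 for all genes. In the same comparison airway cells had 3 of 11 higher and 0 lower (all genes 13.9% and 6.62%). Macrophages had 3 and 1 of 11 (10.0% and 15.5%), alveolar cells 2 and 1 of 10 (13.9% and 7.29%) and fibroblasts 0 and 0 of 10 (9.9% and 5.54%). With OVA, Hif1a was at 234 and 407 CPM in T cells and at 67.6 and 128 CPM in fibroblasts. In airway cells Egln3, a prolyl hydroxylase induced by hypoxia, was at 3.80 CPM in WT OVA (11 UMIs) and 21.1 CPM in DJ-1 KO OVA (61 UMIs).

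Stress genes outside T cells differed by class. In alveolar cells 11 of 17 immediate early and dissociation genes were past 1.5-fold higher with OVA (median 0.74; all genes 7.62%), and in the knockout comparison 2 were higher and 6 lower (median -0.38; all genes 13.9% and 7.29%). Airway cells had 2 of 17 higher and 5 lower in the knockout comparison (median -0.50; all genes 13.9% and 6.62%). The 2 higher were Hspa1b, at 87.0 CPM in WT OVA and 348 CPM in DJ-1 KO OVA, and Hspa1a, at 77.3 and 209 CPM. Fibroblasts had 0 of 17 higher and 5 lower in the same comparison (median -0.31; all genes 9.9% and 5.54%). Both genes were among the lower ones there, Hspa1b at 364 and 174 CPM and Hspa1a at 298 and 142 CPM.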
